A study of Mus musculus with 16 samples.

Results

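Apolipoproteins are the protein part of plasma lipoproteins, and 10 of their genes, Apoa1, Apoa2, Apoa4, Apoa5, Apob, Apoc1, Apoc2, Apoc3, Apoe and Apom, were followed in mouse liver RNA across 2 diets and 2 genotypes. Genes were taken by the symbol that the array's deposited signal table gives to each probe. Of the 10 genes, 9 had a probe, 11 probes in all because Apoc1 and Apoc2 had 2 each, among 25697 probes for 18138 symbols. All 9 passed the detection filter and were among the 9265 genes tested. Apob, the structural protein of the particles that the liver secretes, carried no probe under that symbol and was not analysed here.

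RNA from 16 liver samples was hybridised to Illumina bead arrays, 1 array per sample, in 4 groups of 4. The mice were wild type (WT) or c-Met knockout (KO), all on a 129SV/C57BL/6 background, and were kept for 30 days on regular chow or on a high cholesterol diet. Its additions were cholesterol at 2% and sodium cholate, a salt of a bile acid, at 0.5%. The knocked-out gene encodes the hepatocyte growth factor receptor, and the series title calls its elimination conditional and places it in the liver. The labels name neither a Cre driver nor the age of the mice, and describe no control that carried a driver or a floxed allele alone. Nor do they say that the samples were separate animals, so the p-values refer to spread among samples, which may be technical. With 4 arrays in a group, precision is limited throughout. In whole liver RNA, fewer cells of a type and less RNA per cell cannot be told apart.

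The hepatocyte is the main source of most of these proteins. Apoa1 and Apoa2 form the scaffold of high-density lipoprotein, Apoe binds the receptors that clear lipoproteins, and Apoc2 is the cofactor that lipoprotein lipase needs to hydrolyse triglyceride. Apoa5 aids that hydrolysis, Apoc3 and Apoc1 slow the hydrolysis or the uptake of the particles, Apom carries sphingosine 1-phosphate, and Apoa4, made mostly in the intestine, travels on chylomicrons and high-density lipoprotein. With quantile-normalized arrays the differences of the 9 genes between the diets were mostly small, whereas scaling the arrays by their median gave lower Apoa1, Apoa2, Apoc1 and Apoc3 on the high cholesterol diet. None between the genotypes passed the test. Apoa2 fell 1.28-fold with the high cholesterol diet in KO mice, and 1 of the 2 Apoc2 probes rose with it in both genotypes. On a single array Apoa4 and Apoc2 stood far above all others.

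Start regions of these 3 genes are shown because the results turn on them. Each is the 300 bases around an annotated transcript start, most of them upstream, 5′ to 3′ on the gene's strand, as given by RefSeq for GRCm38.p6. Capitals mark the nuclear receptor motif AGGTCA, in either orientation, and the TATA box motif TATAAA. The windows lie at chr9:46240594-46240893 (plus strand) for Apoa4, chr7:19677892-19678191 (minus strand) for Apoc2, and chr1:171221314-171221613 and chr1:171224804-171225103 (both plus strand) for the 2 annotated starts of Apoa2.
Apoa4: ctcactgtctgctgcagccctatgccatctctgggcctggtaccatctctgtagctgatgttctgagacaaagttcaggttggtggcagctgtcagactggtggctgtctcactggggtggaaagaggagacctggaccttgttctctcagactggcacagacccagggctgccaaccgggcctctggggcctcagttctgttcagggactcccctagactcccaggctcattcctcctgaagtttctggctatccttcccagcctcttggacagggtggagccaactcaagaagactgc
Apoc2: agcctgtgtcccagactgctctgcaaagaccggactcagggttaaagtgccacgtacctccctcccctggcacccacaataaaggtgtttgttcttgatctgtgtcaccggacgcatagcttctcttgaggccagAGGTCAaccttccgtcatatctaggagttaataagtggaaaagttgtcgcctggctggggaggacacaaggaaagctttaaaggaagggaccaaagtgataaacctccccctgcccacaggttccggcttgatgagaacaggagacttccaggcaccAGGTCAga
Apoa2 upstream start: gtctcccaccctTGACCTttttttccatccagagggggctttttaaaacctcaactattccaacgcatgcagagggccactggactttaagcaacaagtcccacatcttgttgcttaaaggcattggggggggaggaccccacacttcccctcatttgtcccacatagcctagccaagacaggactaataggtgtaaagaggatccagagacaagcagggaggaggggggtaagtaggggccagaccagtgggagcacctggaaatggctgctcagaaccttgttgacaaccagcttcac
Apoa2 downstream start: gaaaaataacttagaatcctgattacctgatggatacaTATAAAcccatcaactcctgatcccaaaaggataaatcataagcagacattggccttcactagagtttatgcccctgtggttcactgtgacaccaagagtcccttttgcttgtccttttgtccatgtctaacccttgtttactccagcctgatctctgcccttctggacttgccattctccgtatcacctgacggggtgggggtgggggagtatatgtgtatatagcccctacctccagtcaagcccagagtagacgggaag
The Apoc2 window held AGGTCA at 2 places, the upstream Apoa2 window held its reverse complement once, and the Apoa4 window held none of the motifs searched. AGGTCA, searched on both strands, was present in 16.3% of all 32851 start regions of the same length, and in 2 of 12 windows of the 8 genes that have one in the table. TATAAA, also on both strands, was in 13.6% of all windows and in 5 of these 12, which belong to Apoa2, Apoa5, Apob and Apoe. The 2 Apoa5 windows among them overlap and hold the same site, so it is counted for each. The core motif of hepatocyte nuclear factor 4, CAAAGTC, was in 4.44% of all windows and in 0 of the 12. These matches describe letters in a window. Apoc1 and Apoc3 are named only.

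On the genome the genes form 2 runs and 3 single loci. On chromosome 9 the order was Apoa1, Apoc3, Apoa4 and Apoa5. On chromosome 7 Apoc1 lay between Apoc4 and Apoe, and Apoc2 lay beside Clptm1 in the same region. Apoa2 is on chromosome 1, Apob on 12 and Apom on 17.

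The first question for such abundant transcripts is whether their probes still have room to move. The deposited intensities, background-subtracted but not normalized between arrays, placed 5 of the 9 genes at the top of the array's scale. Apoa1, Apoa2, Apoc1, Apoc3 and Apoe were among the 50 brightest genes of the 9265 tested, ranked by mean normalized log2 intensity. Their probes read between 65.2% and 100% of the highest deposited intensity of the same array. Apoc3 was itself the brightest probe on at least 1 array and reached 90% of the array's highest intensity on 6 of 16 arrays, against 3 for Apoa2, 3 for Apoe, 1 for the brighter Apoc1 probe and 0 for Apoa1. The highest intensity of an array ran from 25836 to 34868, so no fixed ceiling was shared by the arrays, and the files carry no saturation flag. Between the lowest and the highest of the 16 arrays these 5 genes spanned only 1.38-fold (Apoe) to 1.62-fold (Apoc3 and Apoa2).

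Little spread at the top of the scale was common to bright probes. After quantile normalization the median residual SD of the 50 brightest genes was 0.123 on the log2 scale, against 0.255 over all genes tested. That step gives the top ranks of all arrays the same few values, so it can itself lower the spread there. The calls that follow also come from the normalized values. Of these 50 genes, 5 (10%) passed the test between diets in WT mice and 7 (14%) in KO mice, with largest absolute log2 differences of 1.19 and 1.36. At least 1 of the 50 genes thus differed by more than 2-fold in each genotype. Its rank among them was not examined, and the apolipoproteins held ranks from 6 to 17. Whether the differences of Apoa1, Apoa2, Apoc1, Apoc3 and Apoe are compressed was not tested.

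The other 4 genes lay inside the scale, except for Apoa4 on 1 array. Apom read 2164 to 4531 intensity units, Apoa5 792 to 2012, and the brighter Apoc2 probe 424 to 2771. Apoa4 read 956 to 4239 on 15 arrays and 24771 on high cholesterol WT replicate 3, which is 76.4% of that array's highest intensity and thus in the band of the 5 bright genes. All probes were detected on 16 of 16 arrays, except the dimmer Apoc2 probe, which was detected on 15, missing 1 chow KO array. Probe brightness depends on the probe as well as on the transcript, so these readings do not rank the genes by abundance.

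**Figure D1:**
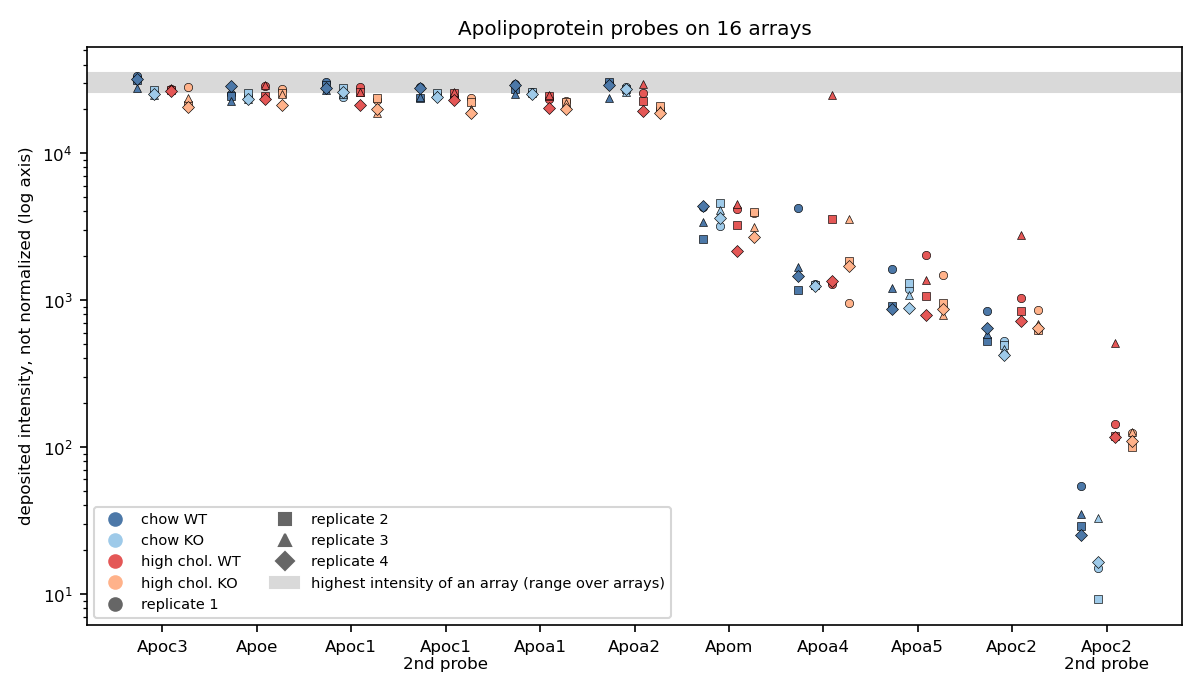
Deposited intensity (log axis, not normalized) of the 11 apolipoprotein probes on each of 16 arrays, coloured by group and shaped by replicate number, with the range of the arrays' highest intensities in grey. The probes of Apoc3, Apoe, Apoc1, Apoa1 and Apoa2 sit in or just under the grey band, and the single high point for Apoa4 is high cholesterol WT replicate 3 at 24771.

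Values from here on are log2 intensities after background modelling and quantile normalization, which gives every array the same distribution of values. Differences carry the standard error of limma's moderated test (n = 4 arrays per group, 1 variance per gene shared by the groups), and adjusted p is the Benjamini-Hochberg value over all 9265 genes. A gene passed when its adjusted p was under 0.05.

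The WT diet comparison addressed what the feeding did to liver transcripts when c-Met was intact. Of the 9 apolipoprotein genes, 0 passed, against 25.4% of all genes tested, and only 1 had an unadjusted p under 0.05. That gene was Apoc2, the lipase cofactor. The median difference over the 9 genes was -0.04, against -0.02 over all genes.

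In KO mice the same diet comparison gave 1 call of 9, against 27.6% of all genes, and the median difference was -0.10, against -0.03 over all genes. The call was Apoa2, an apolipoprotein of high-density lipoprotein. Groups that did not overlap, with every array of one diet above every array of the other, were found for 1 of 9 genes in WT mice (25.4% of all genes) and 3 of 9 in KO mice (30.3% of all genes). They were Apoc2 in WT, and Apoc2, Apoe and Apoa2 in KO.

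Apoa2 read 14.78, 14.62, 14.71 and 14.78 on the 4 chow KO arrays, and 14.29, 14.44, 14.40 and 14.33 on the 4 high cholesterol KO arrays. Every chow array was above every high cholesterol array. The difference was -0.36 ± 0.12, a 1.28-fold fall with an interval of -0.61 to -0.11 and a limma adjusted p of 0.0343. The deposited intensities were separated as well, at 25804 to 28133 on chow and 18813 to 21041 on the high cholesterol diet. That separation was not particular to Apoa2. In KO mice the deposited intensities of Apoa1, which did not pass, were 25037 to 25963 and 19840 to 22740, and both Apoc1 probes separated too. The KO arrays also peaked at 29957 to 33301 on chow and at 25836 to 29528 on the high cholesterol diet. The call rested on few arrays. Without any one of chow KO replicates 1, 3 or 4 or high cholesterol KO replicates 1, 3 or 4, the limma adjusted p was 0.0507 to 0.0798, with differences of -0.34 to -0.37.

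In WT mice Apoa2 read 14.56, 14.86, 14.57 and 14.63 on chow and 14.49, 14.41, 14.74 and 14.33 on the high cholesterol diet. The groups overlapped because high cholesterol WT replicate 3 was above 3 of the 4 chow arrays. The WT difference was -0.16 ± 0.12 (limma adjusted p = 0.337), and -0.25 ± 0.12 without that array (limma adjusted p = 0.155). The test of the difference between the genotypes' diet responses gave -0.20 ± 0.17 for Apoa2 (limma adjusted p = 0.704), so the fall in KO mice was not shown to differ from the WT value.

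Apoa1, the main protein of high-density lipoprotein, read 14.55 to 14.68 on chow WT arrays and 14.31 to 14.56 on high cholesterol WT arrays. In KO mice the ranges were 14.56 to 14.70 and 14.49 to 14.63. The groups overlapped in both genotypes. The differences were -0.17 ± 0.11 in WT (interval -0.40 to 0.05) and -0.10 ± 0.11 in KO (interval -0.33 to 0.12), and were larger and passed under median scaling, as for Apoc1 and Apoc3, with values given further on.

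Apoe, the receptor ligand, read 14.60, 14.52, 14.57 and 14.59 on chow KO arrays and 14.78, 14.72, 14.81 and 14.68 on high cholesterol KO arrays. All 4 high cholesterol arrays were above all 4 chow arrays, yet the gap was small: 0.18 ± 0.11, limma adjusted p = 0.242. In WT mice the values were 14.26, 14.56, 14.51 and 14.60 on chow and 14.70, 14.55, 14.70 and 14.62 on the high cholesterol diet, with a difference of 0.16 ± 0.11 (limma adjusted p = 0.307). The low chow reading was WT replicate 1. The sign of the Apoe difference depended on the normalization, and it was negative in both genotypes when arrays were scaled by their median or 75th percentile, as given below.

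Among the modulators of lipolysis, Apoc2 was the gene whose diet groups did not overlap in either genotype. Its brighter probe read 9.31, 9.36, 9.34 and 9.39 on chow WT arrays, a spread of 0.03 (SD), and 9.64, 9.69, 11.28 and 9.43 on high cholesterol WT arrays. All high cholesterol arrays were above all chow arrays, and 1 of them, replicate 3, was far above the rest. The difference was 0.66 ± 0.27, with an interval of 0.08 to 1.24 and a limma adjusted p of 0.0852. It shrank to 0.24 ± 0.13 (adjusted p = 0.190) without replicate 3, and reached 0.86 (adjusted p = 0.032) without replicate 4. Without WT replicate 3, 21.4% of all genes passed between the diets in WT mice and 29.5% in KO mice.

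In KO mice the brighter Apoc2 probe read 9.30, 9.08, 9.11 and 9.06 on chow and 9.76, 9.43, 9.60 and 9.48 on the high cholesterol diet. Here too the diets did not overlap, and no single array stood apart. The difference was 0.43 ± 0.27 with a limma adjusted p of 0.253. Because the variance is shared by the 4 groups, WT replicate 3 entered this error as well. Without that array the same difference had an error of 0.12 and passed, with an adjusted p of 0.0118.

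A second, dimmer Apoc2 probe gave a larger difference in the same direction. Its deposited intensities were 54, 29, 35 and 25 on chow WT arrays and 144, 119, 513 and 116 on high cholesterol WT arrays. In KO mice they were 15, 9, 33 and 16 on chow, and 125, 100, 127 and 110 on the high cholesterol diet. The lowest high cholesterol reading was thus above the highest chow reading over all 16 arrays. When each of 12248 probes was tested singly, it passed in WT mice (1.62 ± 0.32, limma adjusted p = 0.0017) and in KO mice (1.80 ± 0.32, adjusted p = 0.000619). Under that test 24.6% of all probes passed in WT and 27.7% in KO. Without WT replicate 3 the WT difference of the dimmer probe was 1.15 ± 0.19 (adjusted p = 0.000597).

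This probe sat close to the background, where the diets' arrays also differed. Over the 9145 probes never detected, the SD of the intensity was 4.47 to 5.51 on the 8 chow arrays and 6.54 to 8.08 on the 8 high cholesterol arrays. The part of this difference in the Apoc2 result was not tested. The 2 Apoc2 probes had a Pearson correlation of 0.84 over the 16 arrays, as a description, and their log2 differences between diets were unequal in size.

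Apoc3, an inhibitor of lipolysis, read 14.72 to 14.93 on chow WT and 14.63 to 14.81 on high cholesterol WT arrays. In KO mice it read 14.60 to 14.69 and 14.46 to 14.81. The diet differences were -0.11 ± 0.11 in WT and -0.00 ± 0.11 in KO, and the interval in KO was -0.24 to 0.24. Apoc1 differed by -0.04 ± 0.11 in WT and -0.16 ± 0.11 in KO. Its 2 probes, which both sat near the top of the scale, had a correlation of only 0.26 over the 16 arrays, so they shared little variation. The second Apoc1 probe gave 0.02 ± 0.12 in WT and -0.13 ± 0.12 in KO.

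Apoa5, which aids lipolysis, read 9.78 to 10.36 on chow WT and 9.58 to 10.65 on high cholesterol WT arrays. Its diet differences were -0.01 ± 0.21 in WT (interval -0.45 to 0.42) and -0.27 ± 0.21 in KO (interval -0.71 to 0.16). Apom, the carrier of sphingosine 1-phosphate, differed by -0.07 ± 0.19 in WT and -0.19 ± 0.19 in KO. For both genes the diets overlapped in both genotypes.

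**Figure D2:**
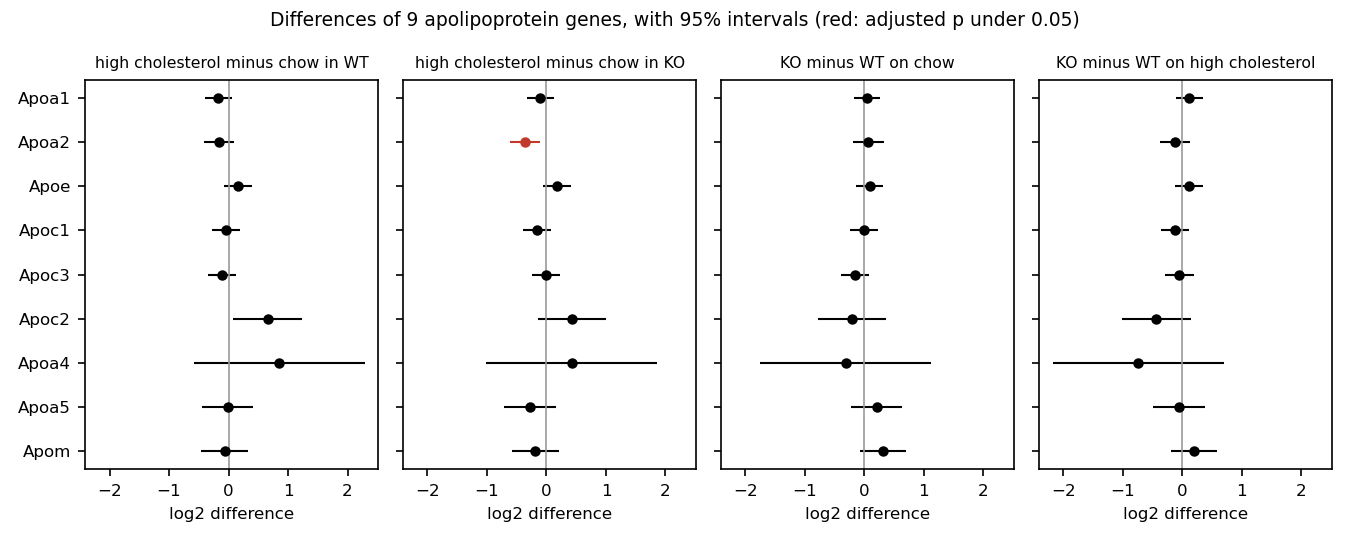
Log2 differences of the 9 genes in 4 comparisons, as points with 95% intervals from limma (n = 4 arrays per group), with a red point where the adjusted p was under 0.05. Apoa2 in KO mice, at -0.36, is the only red point, and the intervals of Apoa4 and Apoc2 are the widest.

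Apoa4 was the most variable member. It read 11.55, 10.44, 10.80 and 10.52 on chow WT arrays and 10.56, 10.41, 10.52 and 10.55 on chow KO arrays. On the high cholesterol diet it read 9.96, 11.83, 14.55 and 10.37 in WT and 9.92, 10.94, 12.01 and 10.87 in KO. The SD within a group ran from 0.07 in chow KO to 2.08 in high cholesterol WT, and the high cholesterol arrays lay on both sides of the chow arrays. Diet differences were 0.85 ± 0.68 in WT (limma adjusted p = 0.380) and 0.42 ± 0.68 in KO (adjusted p = 0.676). Without high cholesterol WT replicate 3 the WT value turned to -0.11 ± 0.43 (adjusted p = 0.879).

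That array carried both of the high readings. Apoa4 on high cholesterol WT replicate 3 exceeded the mean of the other 3 arrays of its group by 3.83 on the log2 scale, 14.2-fold, and Apoc2 by 1.69, 3.24-fold. Both were also above all 15 other arrays. Whether the Apoa4 reading, in the top band of the scale, is compressed was not tested. For the neighbours of Apoa4 on chromosome 9 the same gap was 0.16 for Apoa1, -0.06 for Apoc3 and 0.09 for Apoa5. For those of Apoc2 on chromosome 7 it was 0.08 for Apoe, -0.04 for Apoc1 and 0.25 for Apoc4. Elsewhere the gap was 0.33 for Apoa2 and 0.53 for Apom. Apoa1, Apoc3, Apoe, Apoc1 and Apoa2 averaged 14.40 to 14.72 on the other 3 arrays. The highest value that quantile normalization gave an array was 14.93, so normalized values left these genes no room for a rise of either size. Whether their probes were also saturated was not tested. Apoa5 and Apom lay inside the scale, and Apoc4, at a mean of 13.57 on the other 3 arrays, had less room. Over the 16 arrays Apoa4 and Apoc2 had a Pearson correlation of 0.81, and of 0.15 over the 15 arrays without this one.

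Markers of several other cell types were also high on that array. The summed intensity of 11 tested recruited macrophage markers, of 16 listed, was 14829 there, against 5885 for the lowest array of the same group, 4397 to 9172 in high cholesterol KO and 2195 to 3045 on all chow arrays. Lyz1, Itgax and Ccr2 of that list were detected on 0 arrays. The 4 tested cholangiocyte markers, a list that shares Spp1 with the macrophage list, summed to 3152 there. The lowest array of the same group had 472, and high cholesterol KO had no more than 786. The 10 Kupffer cell markers summed to 3743, the highest of its group but below the 7249 reached in high cholesterol KO, and the 9 endothelial markers to 4769, also the highest of its group. The 9 stellate cell and fibroblast markers, at 5596, lay inside their group's range of 5227 to 6962. The 10 hepatocyte markers summed to 49743, inside the group's range of 42950 to 51057, and to 52075 to 57661 on all chow arrays. That sum is set by the brightest genes. As a mean deviation from each gene's average, which gives the genes equal weight, the hepatocyte markers stood at -0.29 on the log2 scale on this array and at 0.15, 0.27 and 0.21 on the other 3 of its group. By the same measure the recruited macrophage markers stood at 1.77 on this array and at 0.99, 0.45 and 0.86 on the other 3. All chow arrays had -0.88 to -0.55 for them. The cholangiocyte markers stood at 0.91 on this array and at 0.01, 0.35 and 0.41 on the other 3. The part of these cell types in the Apoa4 and Apoc2 readings was not tested.

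Of 9 listed enterocyte markers, 5 had a probe, and only 2, Anpep and Cdx1, passed the detection filter. Fabp2, Vil1 and Cdx2, which define intestinal epithelium, were detected on 0 of 16 arrays. The 2 that passed summed to 465 on that array, the lowest of its group, whose highest was 743. An intestinal part in the Apoa4 reading was not tested.

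The genes whose pattern was most like that of Apoa4 and Apoc2, chosen after these values were seen, were also highest on this array. The choice itself favours that, since this array is the extreme point of both genes. For Apoa4 they were Aurka (r = 0.88), Anln (0.88) and S100a6 (0.87), and without the array the correlations were 0.53, 0.46 and 0.44. For Apoc2 they were Birc5 (r = 0.94), Ncaph (0.92) and 1810023F06Rik (0.92), and 0.76, 0.68 and 0.83 without it. Aurka, Anln, Birc5 and Ncaph act in cell division, and a part of cell division in these readings was not tested. Over the 15 arrays without this one, other genes were the most alike. They were Lst1 (r = 0.81), Rnd2 (0.77) and 1200013B08Rik (0.76) for Apoa4, and Slc15a4 (0.92), Plxnc1 (0.92) and Smpdl3a (0.91) for Apoc2. For Apoa2, the member that passed a test, the 3 most alike were Fam164a (0.91), Hmgb2l1 (0.89) and Gbl (0.89), and 0.94, 0.90 and 0.88 without the array. All of these are descriptions over arrays that share diet groups.

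**Figure D3:**
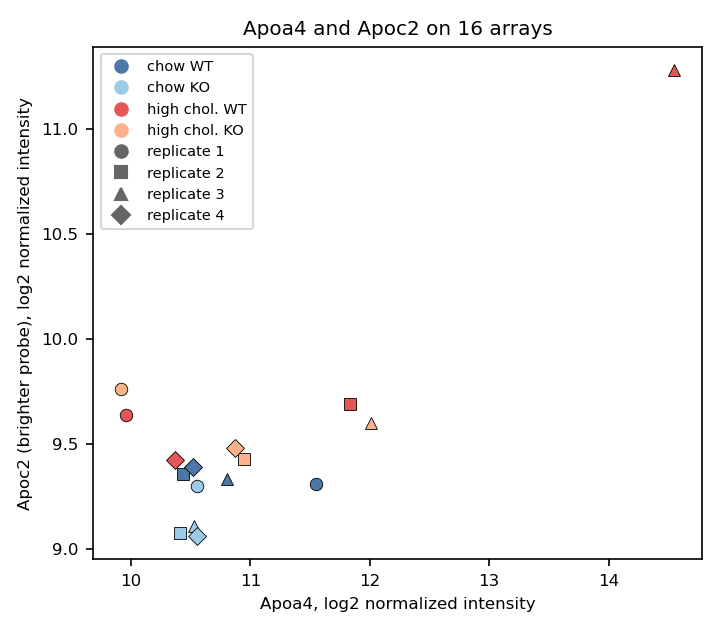
Log2 normalized intensity of Apoa4 (x axis) and of the brighter Apoc2 probe (y axis) on each of 16 arrays, coloured by group and shaped by replicate. High cholesterol WT replicate 3 lies alone at 14.55 and 11.28, while the other 15 arrays hold Apoc2 between 9.06 and 9.76.

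How far the abundant apolipoproteins differed between the diets depended on how the arrays were put on one scale. Quantile normalization forces the brightest values of all arrays to be equal. The chow arrays peaked at 29957 to 34868 intensity units, with a 75th percentile of 61.4 to 107. The high cholesterol arrays peaked lower, at 25836 to 32890, with a 75th percentile of 76.6 to 113. When each array was instead scaled by its median, Apoa1, Apoa2, Apoc1 and Apoc3 passed as lower on the high cholesterol diet in both genotypes. That median was taken over all 25697 probes, of which 10028 to 11952 were detected on an array. It therefore lay among undetected probes, a level at which the diets' arrays also differed in spread, as given above. The part of this in the calls was not tested. In WT mice the differences were -0.58 for Apoa1, -0.56 for Apoa2, -0.53 for Apoc3 and -0.50 for Apoc1, with limma adjusted p of 0.00259 to 0.0102. In KO mice they were -0.49 for Apoa1, -0.70 for Apoa2, -0.52 for Apoc1 and -0.39 for Apoc3, with limma adjusted p of 0.00179 to 0.0365.

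Median scaling also moved the median of all genes, to -0.09 between the diets in WT mice and -0.11 in KO mice, and to -0.12 and -0.14 between the genotypes on chow and on the high cholesterol diet. Relative to that shift the differences were -0.49 (Apoa1), -0.47 (Apoa2), -0.44 (Apoc3) and -0.41 (Apoc1) in WT, and -0.38, -0.60, -0.28 and -0.41 in KO. With the 75th percentile as the scale, the same 4 genes passed in WT and Apoa1, Apoa2 and Apoc1 in KO. Apoe turned negative under both scalings, to -0.27 in WT under each and to -0.22 and -0.14 in KO, without passing. Cyclic loess and the authors' own normalized values kept Apoe positive, and with each of them Apoa2 in KO was again the only call. The split of all genes between higher and lower moved as well: 1265 higher and 1089 lower in WT with quantile normalization, 1099 and 1315 with median scaling, and 1173 and 1607 with the 75th percentile. In KO it was 1411 and 1148, then 1016 and 1347, then 1307 and 1130. Which scale is right for these arrays was not tested.

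**Figure D4:**
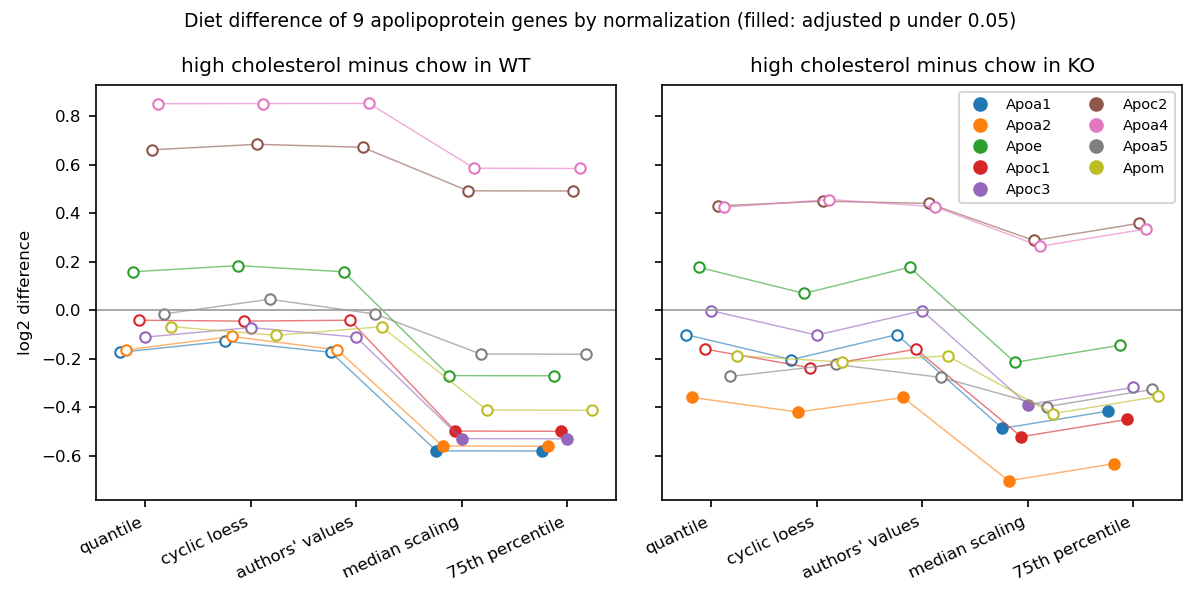
Log2 difference between the diets (y axis) for the 9 genes under 5 normalizations (x axis), in WT (left) and KO (right), with filled points where the limma adjusted p was under 0.05. Apoa1, Apoa2, Apoc1 and Apoc3 lie lower under median and 75th percentile scaling than under the others, and Apoe crosses 0.

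The comparison of genotypes asked what loss of c-Met did to liver transcripts on each diet. On chow, 0 of 9 apolipoprotein genes passed, as did 0% of all genes, although 1470 of 9265 had an unadjusted p under 0.05, 0 of them members. KO minus WT differences ran from -0.31 (Apoa4) to 0.32 (Apom), with a lowest limma adjusted p of 0.411. Groups did not overlap for 2 of the 9, against 13.7% of all genes. These were Apoc2 (-0.21 ± 0.27) and Apoc3 (-0.16 ± 0.11), each lower on every KO array than on every WT array.

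On the high cholesterol diet 0 of 9 passed, against 0.162% of all genes, and 0 of 9 had groups that did not overlap, against 3.92%. None of the 9 had an unadjusted p under 0.05 there, against 905 genes of the whole table. The differences ran from -0.74 ± 0.68 (Apoa4) to 0.20 ± 0.19 (Apom), with a lowest adjusted p of 0.651, and the interval for Apoa1 was -0.11 to 0.34. Without high cholesterol WT replicate 3 the values were 0.22 ± 0.43 for Apoa4 and -0.02 ± 0.13 for Apoc2, which had been -0.44 ± 0.27 with it. The diet responses of the genotypes differed for 0 of 9 genes, against 0.0108% of all genes, with values from -0.43 (Apoa4) to 0.11 (Apoc3) and a lowest adjusted p of 0.704. Over the 9 genes the median was 0.04 on chow, -0.05 on the high cholesterol diet and -0.12 for the difference of responses, against -0.00, 0.01 and 0.01 over all genes. Met itself was detected on 7 of 16 arrays and did not pass (KO minus WT 0.38 ± 0.19 on chow, limma adjusted p = 0.329), and its probe gave no check of the genotype labels.

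Genes that handle the same particles were read from lists of known lipoprotein biology, drawn up with earlier results of these data known. Among 10 tested genes of other apolipoproteins and lipoprotein-borne proteins, 2 rose and 2 fell between the diets in WT mice, where 25.4% of all genes passed, and 3 rose and 1 fell in KO mice, where 27.6% passed. Apoh, beta-2-glycoprotein I, rose by 0.90 ± 0.12 in WT and 1.01 ± 0.12 in KO. Pon1, a paraoxonase carried on high-density lipoprotein, fell by 0.79 ± 0.17 in WT and fell by 0.66 ± 0.17 in KO, while its relative Pon3 rose by 0.70 ± 0.16 and 0.58 ± 0.16. The list's median was -0.05 in WT and 0.25 in KO.

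In plasma lipolysis and lipid transfer, 2 of 7 tested genes rose and 0 fell in each genotype, where 25.4% and 27.6% of all genes passed. The list's median was 0.00 in WT and 0.05 in KO. Lpl, the lipase that Apoc2 activates, rose by 2.11 ± 0.38 in WT and 1.34 ± 0.38 in KO. Recruited macrophage markers, 9 of 11 in WT and 7 of 11 in KO, rose with the diet as well. Of all 9265 genes, 1265 rose in WT and 1411 in KO. The part of these markers in the Lpl result was not tested.

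In the assembly of liver lipoproteins, 0 of 10 tested genes passed in WT mice and 2 rose in KO mice, shares below the 25.4% and 27.6% of all genes. These were Tm6sf2, which acts in the lipidation of secreted particles (0.88 ± 0.14), and Mttp, the transfer protein that loads lipid onto apolipoprotein B (0.59 ± 0.16). In WT mice Tm6sf2 differed by 0.28 ± 0.14 (limma adjusted p = 0.153) and Mttp by 0.28 ± 0.16 (adjusted p = 0.203). The difference of responses was 0.60 ± 0.20 for Tm6sf2 (adjusted p = 0.391) and 0.32 ± 0.22 for Mttp (adjusted p = 0.629). Neither rise was thus shown to differ between the genotypes. Of 10 tested receptor and efflux genes, 2 rose in each genotype, where 25.4% and 27.6% of all genes passed in either direction. Abcg1, a cholesterol exporter, rose by 0.69 ± 0.24 in WT and 0.73 ± 0.24 in KO. The other was Lsr, the lipolysis-stimulated lipoprotein receptor, named after its values were seen, which rose by 0.65 ± 0.23 in WT and 0.64 ± 0.23 in KO. Without high cholesterol WT replicate 3 only Lsr of the 10 rose in WT, and Abcg1 had 0.74 ± 0.26 with a limma adjusted p of 0.0515.

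Of 16 tested transcription factors known to act on apolipoprotein genes, 0 rose and 4 fell in each genotype, a share near the 25.4% and 27.6% of all genes that passed. Srebf2, the activator of cholesterol synthesis and uptake genes, fell by 0.93 ± 0.20 in WT and fell by 1.08 ± 0.20 in KO. Nr1h3, the oxysterol receptor LXR alpha, fell by 0.60 ± 0.15 in WT, and Ppargc1a, a coactivator, fell by 0.84 ± 0.23 in KO. Nr1d1 fell in both, and so did Nr5a2, which lies outside the rule for naming and was named after its values were seen. Without high cholesterol WT replicate 3 the count in WT was 2 of 16, as Nr1d1 (-0.64 ± 0.24, limma adjusted p = 0.066) and Nr5a2 (-0.38 ± 0.17, adjusted p = 0.117) did not pass. Hnf4a, a main activator of several apolipoprotein genes, differed by 0.30 ± 0.17 in WT and 0.07 ± 0.17 in KO without passing.

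Among 21 tested genes of other abundant secreted hepatocyte proteins, 3 rose and 1 fell in WT mice, and 4 rose and 1 fell in KO mice, shares below the 25.4% and 27.6% of all genes that passed. Rbp4, the plasma retinol carrier, rose by 1.14 ± 0.16 in WT and 1.39 ± 0.16 in KO, and Serpina3k, a serine protease inhibitor, fell by 1.88 ± 0.30 in WT and fell by 1.84 ± 0.30 in KO. Alb, serum albumin, rose by 0.92 ± 0.22 in KO and differed by 0.36 ± 0.22 in WT (limma adjusted p = 0.233). Its difference of responses was 0.56 ± 0.30 (adjusted p = 0.543). The list's medians were 0.06 in WT and 0.11 in KO, against -0.04 and -0.10 for the 9 apolipoproteins. Without high cholesterol WT replicate 3, Rbp4 rose and Serpina3k fell in WT, while Fgg and Hp, both among the 3 that rose with it, had limma adjusted p of 0.0529 and 0.0538. None of the 74 pathway genes in these lists passed between the genotypes on either diet or in the difference of responses.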

How the data were processed

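Liver RNA of 16 mouse samples was read on Illumina arrays with GenomeStudio 2009.1, per the submitters' processing notes. The deposited values used here are an intensity per probe and array, not normalized, from which background had been subtracted (some are under 0), and a detection p-value. A second deposited table, of intensity values the authors normalized between arrays, served only as an alternative.

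The apolipoproteins, the lists and the rule for naming genes were chosen with earlier results of these data known. Groups came from the sample labels. limma 3.58.1 (R 4.3.3) corrected the background with normexp based on detection p-values (offset 16), then quantile-normalized the arrays. The log2 was taken after that. Of 25697 probes, 12248 with a detection p under 0.05 on 4 or more arrays entered the tests, and the brightest of them stood for each of 9265 genes. lmFit and eBayes fitted a mean per group, and 5 comparisons used two-sided moderated tests with Benjamini-Hochberg adjustment at 0.05. The text names all apolipoproteins, Met, up to 3 genes per list and comparison with the smallest p among those that passed, and the 3 genes most alike to a member that passed. Values of Lsr, Hp, Nr5a2, Hnf4a, the markers and the genes alike to Apoa4 and Apoc2 were added after they were seen. So were the values of Mttp, Tm6sf2 and Alb in WT and in the difference of responses. Some genes of the lists are not reported here. RefSeq named 17262 of 18138 symbols.

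Alternatives were other background corrections, scalings, filters and probe choices, the authors' values, each probe singly, a replicate block, a fit on the compared groups alone, a variance trend, array weights, a minimum log2 change of 0.5, and each array left out. The procedure was tested on simulated data. Python 3.11.15 with matplotlib 3.10.9 drew the figures.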

Additional observations from a re-analysis of the deposited data

Results flagged for a closer look

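Apoc2 on high cholesterol WT replicate 3 read 11.28 on the log2 scale, apart from the other arrays of its group, of which the nearest read 9.69. The gap was 0.856 of the group's whole range, above the limit for 4 samples. Of 36 combinations of a gene and a group examined, this was the only one so far apart, and chance alone sets about 5% of such groups apart.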

How the results depend on the processing

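The 45 results (9 genes in 5 comparisons) were recomputed under 32 other settings, giving 1441 values. Of these, 1408 kept their side of the threshold and their direction, or lay near 0. There were 55 values with the other sign, 51 of them within 1 standard error of 0. Between genotypes and for the difference of responses, 0 of 9 genes passed under any setting. Between diets in WT, where 0 passed, 4 passed with median or 75th percentile scaling, 1 with the dimmest or the mean probe or each probe singly (Apoc2), and 0 to 1 when an array was left out. Between diets in KO, where 1 passed, 4 passed with median and 3 with 75th percentile scaling, 2 with the dimmest or mean probe, each probe singly or only the groups compared (Apoa2 and Apoc2), 0 with a minimum log2 change of 0.5, and 0 to 2 when an array was left out. Apoe reversed to -0.27 in WT with both scalings, and in KO to -0.22 with median and -0.14 with 75th percentile scaling. The cause was not tested.

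With the replicate number as a block, 1 gene passed between diets in KO (Apoa2, -0.36, limma adjusted p = 0.04996) and 0 in the other 4 comparisons, so no call changed. Same-numbered samples correlated from -0.11 to 0.27 in their deviations from the group means, with 6 of 16 values over 0.1, so the numbers were not taken to pair samples. A block on the slide was left out, since no slide is recorded. Depth is limited by signal over background for the dimmer Apoc2 probe alone.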
